A study of Rattus norvegicus with 12 samples.

Results

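Cardiac myosin heavy and light chains and 2 kinds of myosin-binding protein were followed across 12 rat heart arrays. The members were the probe sets whose only gene symbol in the platform annotation was Myh6, Myh7, Myh7b, Myl2, Myl3, Myl4, Myl7, Mybpc3 or Mybphl. This gave 11 probe sets for 8 of the 9 genes, out of 31042 probe sets and 14217 genes with a single symbol on the array. Myh7b was not analysed here, because no probe set carried its symbol alone. A further 2 probe sets carry both Myh7 and Myh6 as symbols and are not members.

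Each array held a pool of 2 tissues from male Sprague-Dawley rats, taken 28 days after surgery, either the left atrial appendage or the free wall of the left ventricle. The 4 groups of 3 pools, biological replicates per the labels, were left atrium after an aorto-caval shunt, left atrium after a sham operation, left ventricle after the shunt and left ventricle after the sham operation. An aorto-caval shunt joins the aorta to the vena cava and loads the heart with extra blood volume. Values are RMA values on a log2 scale, so that a difference of 1 is a doubling of signal, and the 3 pools per group limit the precision of every comparison.

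Myosin is the motor of the thick filament, built from heavy chains that hydrolyse ATP and pull on actin, each carrying an essential and a regulatory light chain at its neck. The rodent heart makes a fast heavy chain, alpha (Myh6), and a slow one, beta (Myh7), and in rodents the slow chain is known to increase under load and when thyroid hormone is low. The light chains come as atrial forms (Myl4 and Myl7) and ventricular forms (Myl3 and Myl2), and cardiac myosin-binding protein C (Mybpc3) lies along the thick filament and tunes its contraction.

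The 3 heavy chain genes of the set each contain a microRNA gene within them. The guide strands are shown because they tie the heavy chain loci together: those within Myh6 and Myh7 share a seed. Sequences are mature RNAs from RefSeq (GRCr8), 5′ to 3′, with the seed, bases 2 to 8, in capitals. Myh6 and Myh7 lie on chromosome 15 and Myh7b on chromosome 3. The microRNAs lie at chr15:32395568-32395585 on the minus strand, chr15:32421648-32421665 on the minus strand and chr3:164570616-164570636 on the plus strand. None of their levels was analysed here.
rno-miR-208a-3p, within Myh6: aUAAGACGagcaaaaagc
rno-miR-208b-3p, within Myh7: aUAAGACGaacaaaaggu
rno-miR-499-5p, within Myh7b: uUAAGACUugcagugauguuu

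All comparisons used limma on 18625 probe sets whose mean over the 12 arrays reached the 40th percentile (log2 4.01), with Benjamini-Hochberg adjustment over all of them and a threshold of 0.05. All 11 member probe sets were tested. Each SE and interval uses the spread within all 4 groups, so it need not match the spread in 1 chamber. Arrays of 1 group correlated at 0.990 to 0.997. As a sign of RNA quality, the hexokinase control probe set of the 3′ end exceeded that of the 5′ end by 0.80 to 1.44 on atrial shunt arrays, 1.01 to 1.10 on atrial sham arrays, 1.23, 0.82 and 1.18 on ventricular shunt arrays and 0.84 to 1.02 on ventricular sham arrays. Atrial shunt array 3 had the highest, 1.44, and deviated most from its group mean, with a root mean square deviation of 0.20 against 0.0913 to 0.110 on the atrial sham arrays. In bulk tissue, fewer cells of a type and less RNA per cell cannot be told apart.

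**Figure D1:**
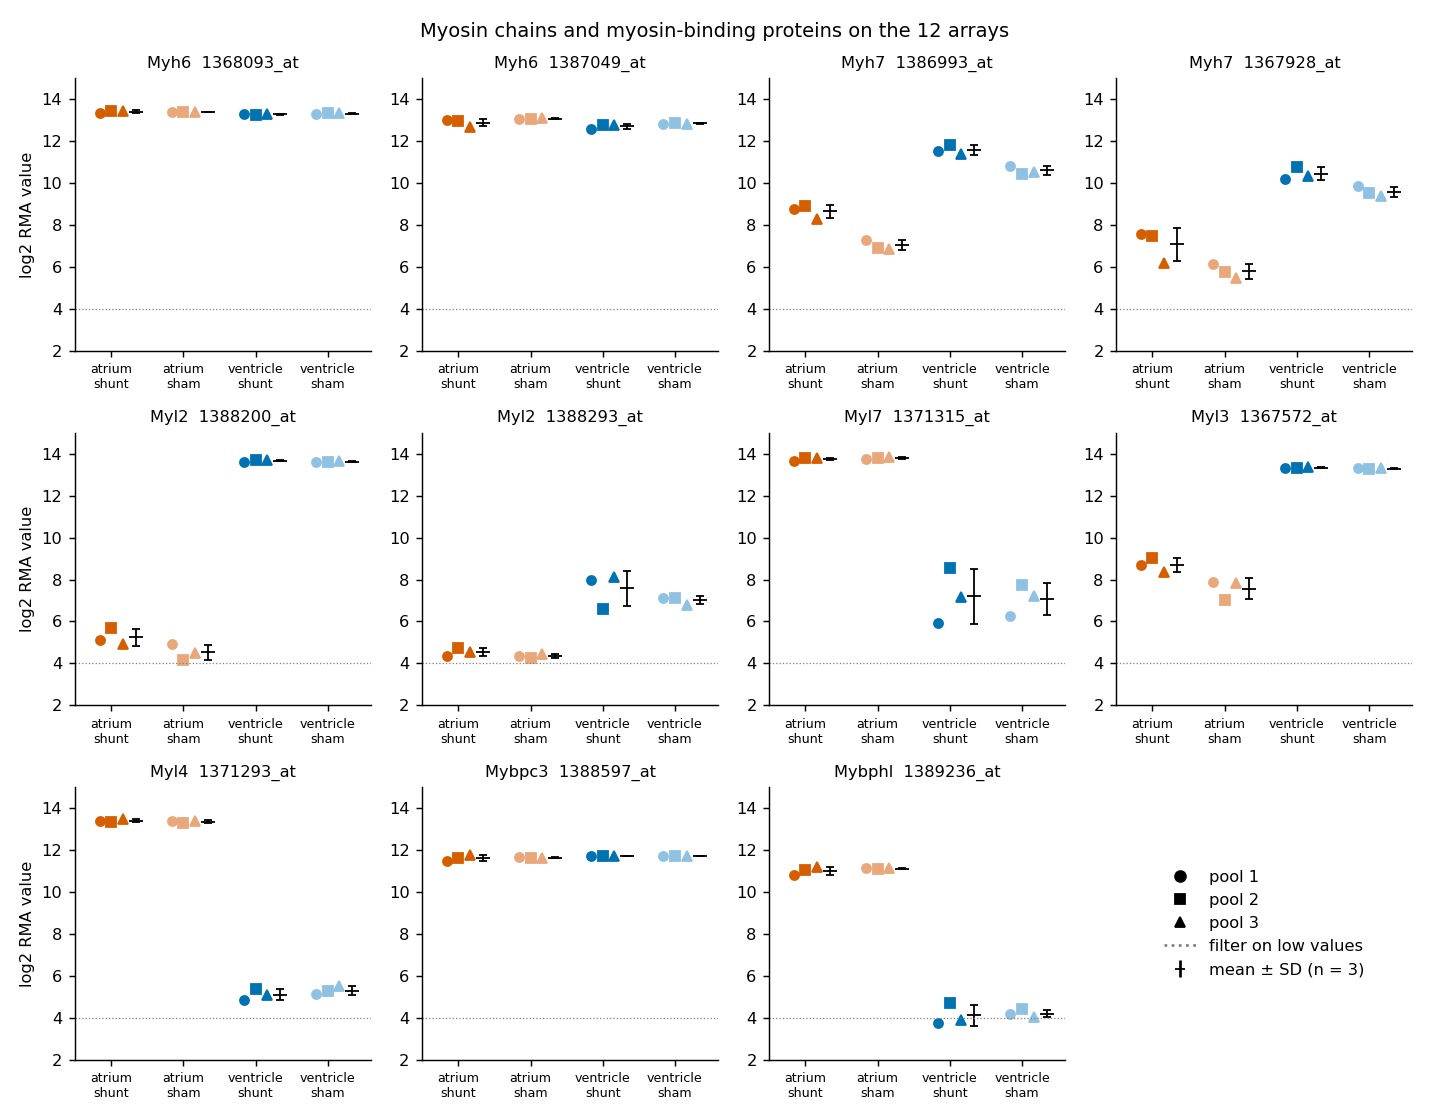
Log2 RMA value (vertical axis) of the 11 member probe sets on each array, by group, with the group mean ± SD and the filter level as a dotted line. Myl2 and Myl3 sit high in ventricle, Myl4, Myl7 and Mybphl sit high in atrium, and Myh7 is the heavy chain with the widest range.

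Myh7, the slow heavy chain, rose in the left atrium after the shunt. Its probe set 1386993_at read 8.79, 8.89 and 8.30 on atrial shunt arrays, against 7.31, 6.91 and 6.87 on atrial sham arrays. The lowest shunt array lay above the highest sham array. The difference was 1.63 ± 0.18 (SE, n = 3 per group), which is 3.10-fold, with a 95% interval of 1.24 to 2.02 and a limma adjusted p of 0.00228. The second Myh7 probe set, 1367928_at, read 7.58, 7.49 and 6.17 on atrial shunt arrays, against 6.14, 5.77 and 5.46 on atrial sham arrays. These groups also did not overlap, though array 3 of the shunt group lay close to the sham arrays. Its difference was 1.29 ± 0.32 without passing (limma adjusted p = 0.082), and without atrial shunt array 3 it was 1.75 with an adjusted p of 0.0023. With the hexokinase difference as a covariate it was 1.30 with an adjusted p of 0.00162. In all, this probe set passed in atrium in 1 of 12 fits that left out 1 array and in 4 of 11 other settings.

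In the left ventricle, where Myh7 starts higher, both probe sets were also higher after the shunt without passing. Probe set 1386993_at read 11.55, 11.82 and 11.39 on ventricular shunt arrays, against 10.84, 10.43 and 10.55 on ventricular sham arrays. The arrays did not overlap. The difference was 0.98 ± 0.18 (1.97-fold, 95% interval 0.59 to 1.36, limma adjusted p = 0.0672). It passed when atrial shunt array 3 was left out of the shared estimate of spread, with an adjusted p of 0.0307. With the hexokinase difference as a covariate it was 1.13 with an adjusted p of 0.00481. In all, it passed in 1 of 12 fits that left out 1 array and in 3 of 11 other settings. Probe set 1367928_at read 10.21, 10.79 and 10.35 on ventricular shunt arrays, against 9.86, 9.52 and 9.38 on ventricular sham arrays, a difference of 0.86 ± 0.32 (limma adjusted p = 0.254). Averaged over both chambers, Myh7 rose by 1.30 ± 0.12 (adjusted p = 0.000876) on 1386993_at and by 1.08 ± 0.23 (adjusted p = 0.0244) on 1367928_at. The second of these calls was kept in 6 of 12 fits that left out 1 array. Such averages take atrial and ventricular pools as independent, which the labels do not state.

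Myh6, the fast heavy chain, showed no change that passed in either chamber. Probe set 1368093_at read 13.37, 13.43 and 13.47 on atrial shunt arrays, against 13.41, 13.42 and 13.41 on atrial sham arrays. It read 13.32, 13.27 and 13.30 on ventricular shunt arrays, against 13.28, 13.33 and 13.36 on ventricular sham arrays. The groups overlapped in both chambers, with differences of 0.01 ± 0.06 in atrium and -0.03 ± 0.06 in ventricle. These values lie near the top of the array's range, where the highest value of any probe set was 14.29. Probe set 1387049_at averaged 12.89 on atrial shunt arrays and 13.07 on atrial sham arrays, a difference of -0.18 ± 0.08 (limma adjusted p = 0.332). It averaged 12.71 on ventricular shunt arrays and 12.85 on ventricular sham arrays, a difference of -0.15 ± 0.08 (adjusted p = 0.436). Shunt arrays lay below sham arrays without overlap in both chambers on this probe set. Of all probe sets, 20.7% did not overlap in atrium and 20.8% in ventricle, in either direction. The lowest arrays were atrial shunt array 3, at 12.70, and ventricular shunt array 1, at 12.59, with hexokinase differences of 1.44 and 1.23. Without atrial shunt array 3 the atrial difference was -0.09.

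The balance of the heavy chains was read within each array as the log2 value of Myh7 (1386993_at) minus that of Myh6 (1368093_at). It measures unequal change of the pair and is not a ratio of molecules. It was -4.58, -4.54 and -5.17 on atrial shunt arrays, against -6.10, -6.51 and -6.54 on atrial sham arrays. It was -1.78, -1.45 and -1.91 on ventricular shunt arrays, against -2.44, -2.90 and -2.81 on ventricular sham arrays. No shunt array overlapped a sham array of its chamber. The shunt effect was 1.62 in atrium and 1.00 in ventricle, each with a two-sided exact permutation p of 0.1, the smallest that 3 arrays against 3 allow. Over both chambers it was 1.31, with an exact permutation p of 0.005, the smallest that permuting each chamber separately allows. That takes atrial and ventricular pools as independent, which the labels do not state. If they came from the same rats, such a p over both chambers is too small. Other pairs of Myh7 and Myh6 probe sets gave 1.09 to 1.47 over both chambers, with exact permutation p of 0.005 to 0.01. For 1367928_at minus 1368093_at the atrial groups overlapped, with shunt array 3 at -7.30 and sham array 1 at -7.27, and the atrial difference was 1.28 with an exact permutation p of 0.2.

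**Figure D2:**
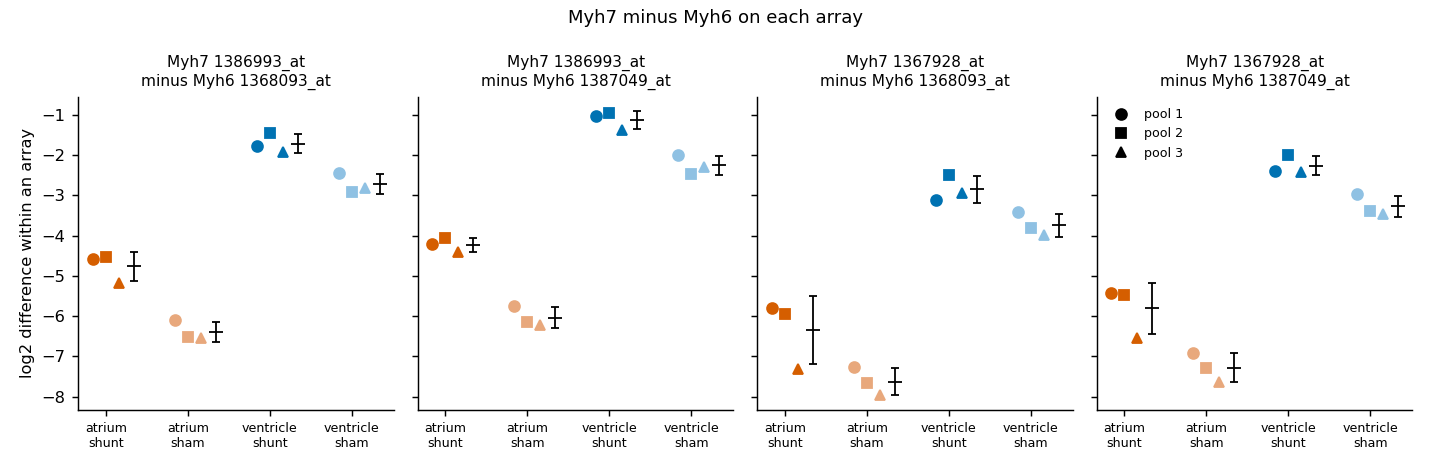
Myh7 minus Myh6 log2 difference on each array for the 4 pairs of probe sets, by group, with the group mean ± SD. For 1386993_at and 1368093_at shunt arrays lie above sham arrays in both chambers, with means of -4.76 and -6.38 in atrium and -1.71 and -2.72 in ventricle.

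Myl3, the ventricular essential light chain, rose in the left atrium after the shunt. It read 8.70, 9.03 and 8.35 on atrial shunt arrays, against 7.88, 7.01 and 7.82 on atrial sham arrays. The arrays did not overlap, and the widest gap within a group was in sham. The difference was 1.13 ± 0.21 (2.18-fold, 95% interval 0.67 to 1.58, limma adjusted p = 0.0256). The call was lost without atrial shunt array 1 (adjusted p = 0.0779), atrial shunt array 2 (0.089) or atrial sham array 3 (0.0549), and with only the atrial arrays in the fit (0.162). In the ventricle Myl3 read 13.34, 13.31 and 13.37 on shunt arrays, against 13.30, 13.26 and 13.32 on sham arrays, a difference of 0.05 ± 0.21 that did not pass, with an interval of -0.41 to 0.50. That SE comes mainly from atrium, where the SDs were 0.34 for shunt and 0.49 for sham, against 0.03 in both ventricular groups.

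Myl4, the atrial essential light chain, did not pass in either chamber. It averaged 13.41 on atrial shunt arrays and 13.36 on atrial sham arrays, a difference of 0.05 ± 0.13. In the ventricle it averaged 5.10 on shunt arrays and 5.30 on sham arrays, a difference of -0.20 ± 0.13 (limma adjusted p = 0.488).

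The promoters of the essential light chains are shown because Myl3 and Myl4 are the ventricular and the atrial form. The window runs from 250 bases before to 50 bases after the RefSeq start (GRCr8). The MCAT motif, CATTCC on either strand and marked by capitals, occurs in 14.19% of 33469 such windows. Myl3 (chr8:119616844-119617143, plus strand) holds 2 matches, and Myl4 (chr10:89975900-89976199, plus strand) holds 0. Of the other 6 members with a window, Myh6 holds 1 and 5 hold 0, among them Myh7 and Myl7. The windows of Myh7 and Myl7 run into coding sequence and may miss the start used in heart, so nothing is read from their counts. The E-box, CANNTG, found in 72.1% of windows, occurs 1 time in Myl3 and 3 times in Myl4, and the GATA motif, AGATAA, found in 11.58%, occurs in neither. These genes and the motif marked were chosen after the matches were seen. A match is a description of letters and no site of binding was measured.
Myl3: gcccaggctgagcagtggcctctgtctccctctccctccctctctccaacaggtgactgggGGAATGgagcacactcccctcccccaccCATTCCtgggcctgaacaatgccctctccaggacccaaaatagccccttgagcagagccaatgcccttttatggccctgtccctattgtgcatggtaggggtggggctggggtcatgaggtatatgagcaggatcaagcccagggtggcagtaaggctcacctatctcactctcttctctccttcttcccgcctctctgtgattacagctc
Myl4: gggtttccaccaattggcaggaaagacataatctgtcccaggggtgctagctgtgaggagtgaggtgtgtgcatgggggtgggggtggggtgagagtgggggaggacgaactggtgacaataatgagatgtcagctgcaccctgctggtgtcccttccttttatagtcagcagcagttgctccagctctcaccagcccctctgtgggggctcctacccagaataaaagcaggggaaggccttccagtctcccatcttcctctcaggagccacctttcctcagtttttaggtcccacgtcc

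Myl2, the ventricular regulatory light chain, was higher in shunt atrium without passing. Probe set 1388200_at read 5.12, 5.67 and 4.91 on atrial shunt arrays, against 4.90, 4.16 and 4.50 on atrial sham arrays. The groups only just did not overlap, and all these values lie little above the level of the filter. The difference was 0.71 ± 0.19 (95% interval 0.30 to 1.13, limma adjusted p = 0.0993). Without atrial shunt array 3 it was 0.88 with an adjusted p of 0.0355. In all, it passed in 1 of 12 fits that left out 1 array and in 2 of 11 other settings. In the ventricle the same probe set averaged 13.68 on shunt arrays and 13.63 on sham arrays, a difference of 0.05 ± 0.19. The ventricular SDs were 0.04 for shunt and 0.01 for sham, against 0.39 and 0.37 in atrium, so that SE comes mainly from atrium. The second probe set, 1388293_at, read 8.0, 6.62 and 8.11 on ventricular shunt arrays, against 7.10, 7.14 and 6.81 on ventricular sham arrays. Shunt array 2 lay below every sham array, and the difference of 0.56 ± 0.30 did not pass (limma adjusted p = 0.413). Without that array it was 1.04 with an adjusted p of 0.0212. In all, it passed in 1 of 12 fits that left out 1 array and in 0 of 11 other settings. Arrays 1 and 3, which carry the high values, are the ventricular shunt arrays with the high hexokinase differences of 1.23 and 1.18. Without the 3 shunt arrays of highest hexokinase difference the sign turned, to -0.40, which rests on ventricular shunt array 2 alone and did not pass. In atrium this probe set differed by 0.18 ± 0.30.

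Myl7, the atrial regulatory light chain, did not pass in either chamber. It averaged 13.76 on atrial shunt arrays and 13.80 on atrial sham arrays, a difference of -0.04 ± 0.52. That SE comes mainly from ventricle, where the SDs were 1.32 for shunt and 0.76 for sham, against 0.07 and 0.05 in atrium. In the ventricle Myl7 read 5.91, 8.55 and 7.17 on shunt arrays, against 6.25, 7.74 and 7.23 on sham arrays. The ventricular arrays spread widely within both groups, and ventricular shunt array 2 was the highest. That array was also the highest ventricular array in the atrial marker list, at a mean level of 7.05 against 6.66 to 6.71 on the other ventricular shunt arrays and 6.71 to 6.83 on ventricular sham arrays. The list includes Nppa, atrial natriuretic peptide, read below as a load gene. Nppa was 11.99 on that array, against 9.61 to 11.04 on the other ventricular arrays. Of the rest of the list only Nr2f2 was highest there, at 6.44. Dkk3, Sln, Kcna5, Stard10 and Kcnj3 did not exceed every ventricular sham array. Sln was 4.98 on that array against 4.74 to 5.33 in sham, and Kcnj3 was 5.65 against 5.62 to 6.22. The high list mean is therefore not shared by most of its genes. The part of atrial tissue in the Myl7 value was not tested.

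Mybpc3, cardiac myosin-binding protein C, did not pass in either chamber. It read 11.48, 11.65 and 11.78 on atrial shunt arrays, against 11.69, 11.63 and 11.64 on atrial sham arrays, a difference of -0.02 ± 0.07. It differed by 0.00 ± 0.07 in ventricle. Mybphl, a myosin-binding protein H-like gene of atrial muscle, averaged 11.02 on atrial shunt arrays and 11.13 on atrial sham arrays, a difference of -0.11 ± 0.20, and differed by -0.09 ± 0.20 in ventricle.

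In the left atrium 2 of 11 member probe sets passed, both higher, against 1.3% of all probe sets tested in that comparison and 0.478% higher. There 4 had an unadjusted p under 0.05, against 15.2% of all, and 5 did not overlap between groups, against 20.7% of all. In the left ventricle 0 of 11 passed in limma, against 0.107% of all, and 2 had an unadjusted p under 0.05, against 14.7% of all. In ventricle 3 did not overlap, against 20.8% of all. Averaged over both chambers, 3 of 11 passed, all higher, against 4.8% of all and 1.97% higher. The third was Myl3, at 0.59 ± 0.15 (limma adjusted p = 0.0445), a call kept in 3 of 12 fits that left out 1 array. The median difference of the members was 0.05 in each chamber, against -0.01 over all probe sets in each.

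**Figure D3:**
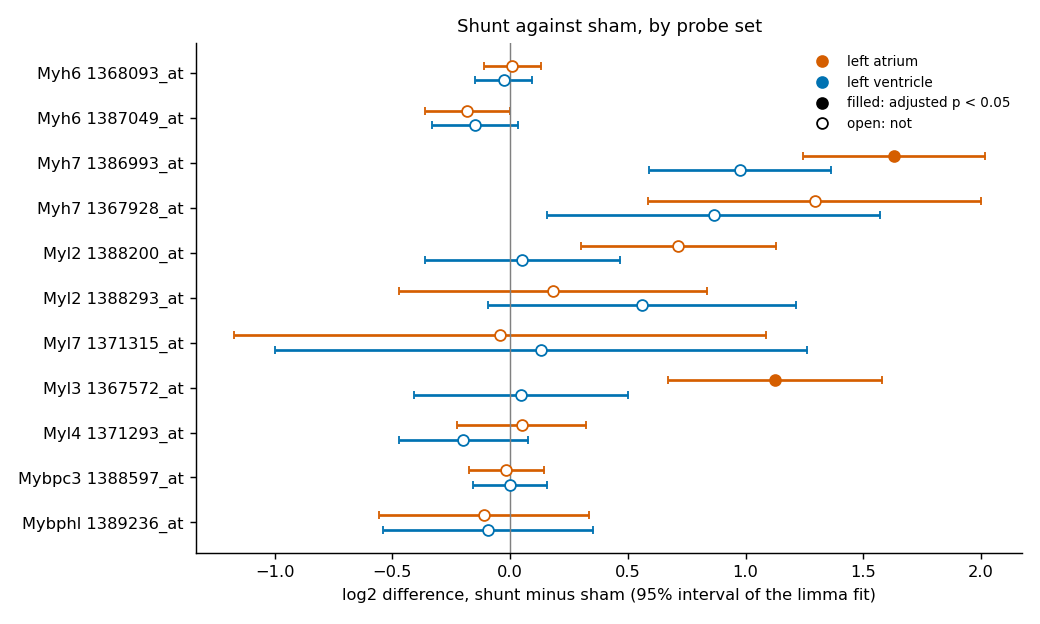
Shunt minus sham difference (log2) of each member probe set in left atrium and left ventricle, with 95% intervals from limma. Myh7 lies to the right of 0 in both chambers, and Myl3 and Myl2 (1388200_at) do so in atrium. The estimates of both Myh6 probe sets stay within 0.2 of 0, with intervals of 1387049_at reaching -0.36 in atrium and -0.33 in ventricle.

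Whether the shunt effect differed between chambers was tested directly, as the atrial minus the ventricular effect. No member passed in limma, nor did any probe set tested, and 3 members had an unadjusted p under 0.05, against 6.6% of all. The largest was Myl3, whose effect was 1.08 ± 0.29 larger in atrium (95% interval 0.44 to 1.72, limma adjusted p = 0.46). Myh7 (1386993_at) was 0.65 ± 0.25 larger in atrium (adjusted p = 0.665) and Myl2 (1388200_at) was 0.66 ± 0.27 larger (adjusted p = 0.698). A difference in effect between chambers was therefore not shown for any member. Values of Myl3 and Myl2 (1388200_at) in ventricle and of Myl4 and Myl7 in atrium lie as near the top of the array's range as Myh6. Changes there may be understated.

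The light chains and Mybphl separated the chambers. In sham rats 8 of 11 member probe sets passed between atrium and ventricle, 3 higher and 5 lower in atrium, against 47.2% of all, 25.2% higher and 22% lower. All 11 had arrays that did not overlap, against 61.2% of all. After the shunt 8 passed as well, again 3 higher and 5 lower, against 41.9% of all, 22.4% higher and 19.4% lower, and 9 did not overlap, against 49.3% of all. In sham rats Myl4 was 8.06 ± 0.13 higher in atrium (267-fold), Mybphl 6.92 ± 0.20 higher (121-fold) and Myl7 6.72 ± 0.52 higher (106-fold). Myl2 differed by -9.10 ± 0.19 on 1388200_at, Myl3 by -5.72 ± 0.21 and Myh7 by -3.58 ± 0.18 on 1386993_at. After the shunt the differences were 8.31 for Myl4, 6.90 for Mybphl and 6.55 for Myl7, and -8.44 for Myl2, -4.65 for Myl3 and -2.93 for Myh7. Signals of Myl2 in atrium and of Mybphl and Myl4 in ventricle lie close to the level of the filter, so those differences and folds may be understated.

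The order of Myh7 levels on 1386993_at was ventricle after shunt, ventricle in sham, atrium after shunt and atrium in sham, at means of 11.58, 10.61, 8.66 and 7.03, and no neighbours in that order overlapped. Myl3 had the same order, at means of 13.34, 13.29, 8.69 and 7.57, and the ventricular groups overlapped. Myh6 did not pass between chambers. On 1387049_at it was 0.21 ± 0.08 higher in atrium in sham rats (limma adjusted p = 0.0519), and it passed in 8 of 12 other settings and in 3 of 12 fits that left out 1 array. On 1368093_at it was 0.09 ± 0.06 higher. Mybpc3 differed by -0.07 ± 0.07.

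**Figure D4:**
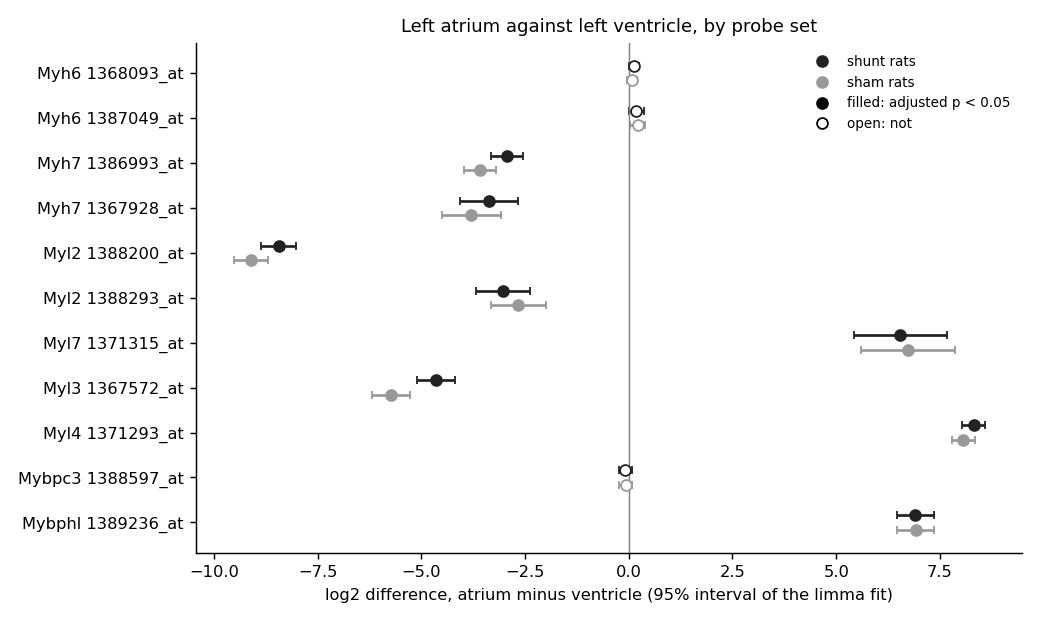
Left atrium minus left ventricle difference (log2) of each member probe set after the shunt and in sham rats, with 95% intervals from limma. Differences run from -9.10 for Myl2 to 8.31 for Myl4, and the Myh6 and Mybpc3 probe sets lie near 0.

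Markers of other cells were read beside the atrial results. The ventricular marker list, without members, had a mean level of 6.30 to 6.41 on atrial shunt arrays, 6.40 to 6.41 on atrial sham arrays, 8.02 to 8.11 on ventricular shunt arrays and 8.08 to 8.13 on ventricular sham arrays. Of its 5 genes tested, 0 passed in limma in shunt atrium and 3 had an unadjusted p under 0.05, against 15.2% of all probe sets. Irx4, a transcription factor of ventricular muscle, read 2.95, 3.0 and 3.24 on atrial shunt arrays, against 3.36, 3.22 and 3.58 on atrial sham arrays. All 6 values lie below the filter level of 4.01, so no direction is read from them. Hey2, another transcription factor of ventricular muscle, was higher on all 3 atrial shunt arrays without passing, by 0.36 ± 0.09 (limma adjusted p = 0.0845), while Fhl2 differed by -0.24. The macrophage list was 6.25 to 6.86 on atrial shunt arrays and 6.43 to 6.54 on atrial sham arrays, and the fibroblast list was 10.72 to 11.02 on atrial shunt arrays and 10.90 to 10.94 on atrial sham arrays, with the lowest of each list on atrial shunt array 3. Lyz2, a lysozyme of macrophages, read 10.08, 9.92 and 9.33 on atrial shunt arrays, against 9.14, 9.13 and 9.22 on atrial sham arrays. It read 10.14, 10.19 and 10.13 on ventricular shunt arrays, against 9.79, 9.73 and 9.83 on ventricular sham arrays, without overlap in either chamber. Averaged over both chambers it rose by 0.49 ± 0.10 (limma adjusted p = 0.0236), 1 of the 5 macrophage markers to pass, against 4.8% of all probe sets. The part of these markers in the myosin results was not tested.

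**Figure D5:**
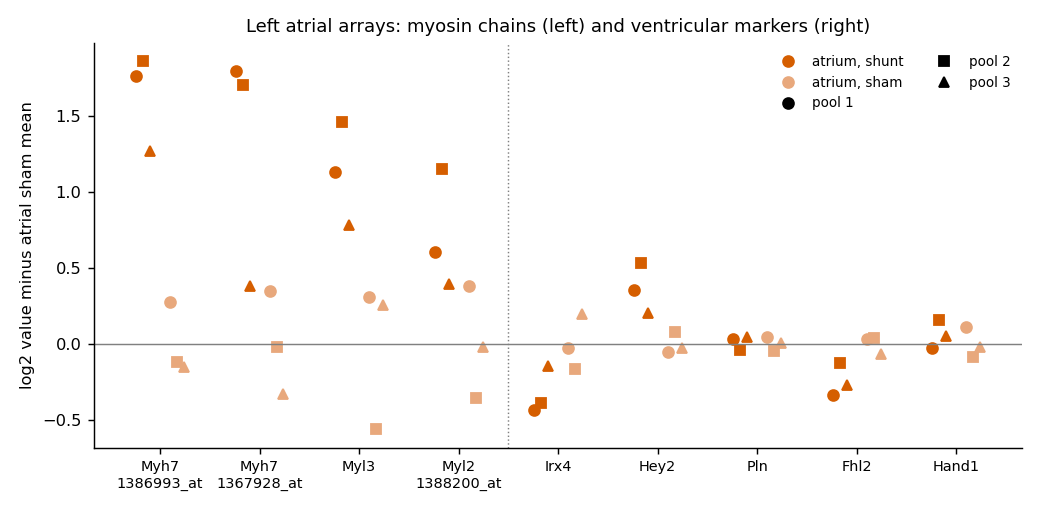
Log2 value minus the atrial sham mean on each of the 6 atrial arrays, for Myh7, Myl3 and Myl2 (left) and 5 ventricular markers (right). Myh7 and Myl3 lie above their sham arrays after the shunt, and 0 of the 5 markers passed.

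Genes around the myosins were read from lists of related genes. Of 11 other heavy chain genes, 6 were tested, and in atrium 1 passed as higher, against 0.478% of all probe sets. This was Myh1, a fast skeletal heavy chain, at 10.81, 10.85 and 10.90 on atrial shunt arrays, against 10.31, 10.39 and 10.25 on atrial sham arrays. The difference was 0.53 ± 0.06 (limma adjusted p = 0.00286). Heavy chains are near-identical in sequence, and the probe set is of a type that can match several genes. The other 9 skeletal markers with a probe set, averaged together, had a mean level of 3.53 to 3.61 over the arrays. That mean lies below the filter level, though Tnni2 and Atp2a1 among them passed the filter. The source of the Myh1 signal is uncertain. In ventricle 1 of the 6 was lower, Myh13, at -0.45 ± 0.07 (adjusted p = 0.0487), where 0.107% of all probe sets passed in either direction. Of 4 other light chains tested, Myl9, a smooth muscle and non-muscle regulatory light chain, was higher in atrium at 0.51 ± 0.10 (adjusted p = 0.0299).

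Among 23 regulators of myosin genes tested, 2 passed as lower in atrium and 0 as higher, against 1.3% of all probe sets passing in either direction. There 7 had an unadjusted p under 0.05, against 15.2% of all. In ventricle 0 passed, against 0.107% of all, and 6 had an unadjusted p under 0.05, against 14.7% of all. Purb, a DNA-binding protein known as a repressor of cardiac myosin genes, read 6.93, 7.06 and 6.89 on atrial shunt arrays, against 7.36, 7.44 and 7.36 on atrial sham arrays. The groups did not overlap, and the difference was -0.43 ± 0.07 (limma adjusted p = 0.0163). Rxrg, a retinoid X receptor that partners thyroid hormone receptors, differed by -0.41 ± 0.09 (adjusted p = 0.0436). The thyroid hormone receptors Thra and Thrb differed by -0.12 ± 0.12 and -0.14 ± 0.08, and the MCAT-binding factor Tead1 by 0.13 ± 0.07, without passing. Averaged over both chambers, Nkx2-5, a cardiac transcription factor, also fell, by 0.19 (adjusted p = 0.0442).

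No gene of the thick filament and M-band, light chain kinase or folding lists passed in limma in a single chamber. The counts with an unadjusted p under 0.05 were 1, 2 and 0 in atrium and 3, 2 and 2 in ventricle, of 8, 9 and 5 tested, against 15.2% of all probe sets in atrium and 14.7% in ventricle. Averaged over both chambers 1 of each passed, against 4.8% of all probe sets. Obsl1, a protein of the M-band region, fell by 0.37 (limma adjusted p = 0.0387), Ppp1r12a, a targeting subunit of myosin phosphatase, rose by 0.21 (0.0491), and Smyd1, a myosin chaperone and methyltransferase, fell by 0.23 (0.0471). Of the load genes, Acta1, skeletal alpha-actin, rose by 1.29 ± 0.17 in atrium (limma adjusted p = 0.00536). Nppb, B-type natriuretic peptide, rose by 0.59 ± 0.11 averaged over both chambers (limma adjusted p = 0.0158), at 0.70 ± 0.15 in atrium and 0.47 ± 0.15 in ventricle. Nppa, the third, read 10.48, 11.99 and 11.04 on ventricular shunt arrays, against 10.11, 9.61 and 10.19 on ventricular sham arrays. In atrium it averaged 14.24 after shunt and 14.15 in sham, near the top of the array's range. Its atrial minus ventricular effect was -1.10 ± 0.40 (limma adjusted p = 0.644). In ventricle 0 of the 3 load genes passed.

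The genes outside the members with profiles most like a member were ranked by the root mean square difference of mean-centred log2 profiles over 12 arrays among 10598 genes. For Myh7 these were LOC102553868 (0.307), Kcnip2 (0.398) and Card9 (0.611). For Myl3 they were Irx3 (0.628), Penk (0.638) and Gpsm1 (0.655). For Myl2 they were Rpl3l (1.52), Penk (1.70) and Aqp7 (2.10), with the member Myl3 (1.80) between the second and the third. Myl7 was closest to another member, Mybphl (0.474), and outside the members to Atp1b4 (0.795), Epha4 (0.926) and Sln (1.02). These profiles are dominated by the difference between chambers.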

How the data were processed

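Gene expression was measured on 12 one-colour Affymetrix rat arrays, 1 pool per array and 3 pools per group. The deposited values are on a log2 scale and were made with RMA, per the submitters' processing notes; the RMA version and which arrays were normalized together are not given in the sources used here. Of 31099 probe sets, 57 controls were left out. A linear model with 4 group means was fitted to all 12 arrays with limma 3.58.1 in R 4.3.3 (8 residual degrees of freedom), on 18625 probe sets with a mean at or above the 40th percentile, with Benjamini-Hochberg adjustment over all of them. The Myh7 minus Myh6 difference was tested by exact permutation. In data simulated for the atrial comparison, 98% of 50 probe sets changed by 1 log2 unit were recovered, and 56% of those changed by 0.5. The simulated noise was normal, independent and of equal spread in every group. It does not model the outlying atrial shunt array 3, so recovery may be overstated. Members, gene lists and tests were chosen with earlier results of these data known. All members are named; from the gene lists, genes that passed in a shunt comparison are named, plus some regulators and markers chosen after their values were seen. Alternatives covered filter, normalization, array weights, prior, samples in the fit, replicate block, minimum fold, RNA quality and leaving out each array. Sequences are from RefSeq GRCr8.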

Additional observations from a re-analysis of the deposited data

How the results depend on the processing

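In the left atrium, where 2 member probe sets passed, 4 passed with array weights, 4 with the hexokinase difference as a covariate, 1 with only the groups compared and 0 with a minimum fold of 1.5, and 1 to 4 when 1 array was left out. In the left ventricle, where 0 passed, 1 passed with the 60th percentile filter, 1 with array weights and 2 with the hexokinase covariate, and 0 to 1 when 1 array was left out. For the mean effect, where 3 passed, 0 passed with the minimum fold and 1 to 3 when 1 array was left out. No member's passing difference changed direction under any alternative run. Myh7 (1386993_at) in atrium passed in all 12 fits without 1 array, at 1.51 to 1.81, and failed among other settings with the minimum fold only (limma adjusted p = 0.147). Over all probe sets tested, the count in atrium was 243, with 66 to 471 when 1 array was left out and 3 to 910 under other settings. In ventricle it was 20, with 0 to 118 and 0 to 215. The mean effect gave 894, with 302 to 1193 and 0 to 1791, and the difference of effects gave 0, with 0 to 19 and 0 to 13. Between chambers it was 8782 in sham rats, with 1112 to 10332 under other settings, and 7801 after the shunt, with 1029 to 8724.

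With a replicate block shared by the 4 groups, 3 member probe sets passed in atrium (Myh7 1367928_at joined, limma adjusted p = 0.0483), 0 in ventricle, 2 for the mean effect (Myl3 did not pass, 0.0644), 0 for the difference of effects and 8 in each chamber comparison. With a replicate block within an operation, shared by atrium and ventricle, 0 passed for the difference of effects and 8 in each chamber comparison. Deviations of same-numbered arrays correlated at -0.10 to 0.01 between shunt and sham of a chamber. Between atrium and ventricle of an operation they correlated at -0.24 to 0.44, above 0 in 5 of 6 pairs. The pair below 0 was shunt 1, with hexokinase differences of 0.80 in atrium and 1.23 in ventricle. Shunt pair 2 had 0.94 and 0.82, and shunt pair 3 had 1.44 and 1.18, each with a correlation of 0.44. The labels do not state a pairing. The part of shared rats or of RNA quality in these correlations was not tested. If the chambers came from the same rats, effects averaged over both chambers treat paired arrays as independent. The block within an operation cannot estimate those averages.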

Other observations

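A probe set annotated to both Myh7 and Myh6, 1396165_at, read 11.07, 10.97 and 9.41 on atrial shunt arrays, against 11.41, 10.56 and 11.14 on atrial sham arrays. It read 9.80, 11.10 and 9.38 on ventricular shunt arrays, against 11.44, 10.52 and 11.33 on ventricular sham arrays. The 3 low arrays, atrial shunt 3 and ventricular shunt 1 and 3, are those with the highest hexokinase 3′ minus 5′ difference, at 1.44, 1.23 and 1.18. The second such probe set, 1398248_s_at, read 13.54 to 13.71 on every array. Neither passed in either shunt comparison.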
